A study of Bos taurus with 9 samples.

Results

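Cytosolic ribosomal proteins are the protein part of the ribosome that translates nuclear messages. They were chosen here by name: a gene counted as a member if its single platform symbol was RPL or RPS followed by a digit, or RPSA, RPLP0, RPLP1 or RPLP2, and did not start with RPS6K. That gave 69 of 9155 genes, measured by 98 of 24016 probe sets, and each gene was represented by its probe set of highest mean over the 9 arrays. Of the 69, 42 carried large subunit symbols and 25 small subunit symbols. The name rule also caught RPL15P, which RefSeq lists as a pseudogene, and RPS19BP1, a protein that binds ribosomal protein S19 and is not itself one; 67 genes remain without them. RPLP1 had no probe set with a single symbol and was not analysed here.

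The cells came from 3 calves aged 3 to 6 months, and each of the 3 groups held 1 array per calf. Articular chondrocytes were embedded in agarose and kept for 28 days in chemically defined medium with 10 ng/mL of the growth factor TGF-beta3 (chondrocytes_day28). Marrow-derived mesenchymal stem cells (MSCs, stromal cells that can form cartilage, bone and fat) were given the same medium for the same 28 days (MSC_day28) or were harvested right after embedding (MSC_day0), so that all groups share the agarose and no group was kept in culture without TGF-beta3. The replicate number is that of the calf in every group, and no genotype, strain or sex is used here. Cartilage markers were set beside the labels, and 7 of 7 were higher in MSC_day28 and in chondrocytes_day28 than in MSC_day0. Their mean log2 level was 11.25 to 11.40 in chondrocytes_day28, 10.56 to 11.04 in MSC_day28 and 5.11 to 5.51 in MSC_day0 arrays. Between chondrocytes_day28 and MSC_day28, 1 of 7 was called higher and 0 lower, with a median difference of 0.04 and a largest of 3.93. The markers therefore set day 28 apart from MSC_day0 and do not check the cell type of the day 28 groups.

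A ribosome has a small subunit, which reads the message, and a large subunit, which joins amino acids. Each is built in the nucleolus from ribosomal RNA and 1 copy of most proteins, so that cells make these proteins in matched amounts. Their messages are among the most abundant in any dividing or secreting cell. They begin with a run of pyrimidines through which the growth regulator mTOR controls their translation, a step that an array of messages does not measure. Cartilage cells secrete large amounts of matrix protein and depend on this machinery.

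Values below are the deposited log2 levels, differences are given with the standard error of limma's moderated model (SE, n = 3 arrays per group throughout), and a gene was called at a Benjamini-Hochberg adjusted p under 0.05 over all probe sets. As a set the ribosomal protein genes lay at the top of the scale: 58 of 69 had a mean level of at least 12, as did 76 other genes. By mean level, 64 members lay above the 95th percentile of all probe sets. The lowest was RPL3L at a mean of 2.21, a muscle isoform of RPL3, followed upwards by RPS19 at 4.72 and RPL37 at a level of 4.47 to 5.10 on all 9 arrays. The members also varied little, with a median SD within groups of 0.0869, against 0.106 for the other genes of that level and 0.242 for all other genes. RPS24, a small subunit protein, had the smallest SD over the 9 arrays: its levels were 13.20, 13.26 and 13.29 in chondrocytes_day28, 13.28, 13.27 and 13.35 in MSC_day28 and 13.28, 13.34 and 13.28 in MSC_day0. Near the top of an array the signal can be compressed, so that small differences there may be understated.

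The members lay lowest on the chondrocyte arrays. Taken as deviations from each gene's own mean, the median of the 69 was -0.11, -0.14 and -0.13 on the chondrocytes_day28 arrays, 0.01, 0.08 and 0.01 on the MSC_day28 arrays and 0.09, 0.11 and 0.06 on the MSC_day0 arrays. All 3 chondrocyte arrays therefore lay below all 6 MSC arrays. The same median over the 76 other genes of at least 12 was between 0.00 and 0.04 on chondrocytes_day28, between -0.02 and 0.03 on MSC_day28 and between -0.00 and 0.06 on MSC_day0 arrays. In bulk samples, fewer cells of a type and less RNA per cell cannot be told apart, and a change in total RNA is removed by the normalization.

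**Figure D1:**
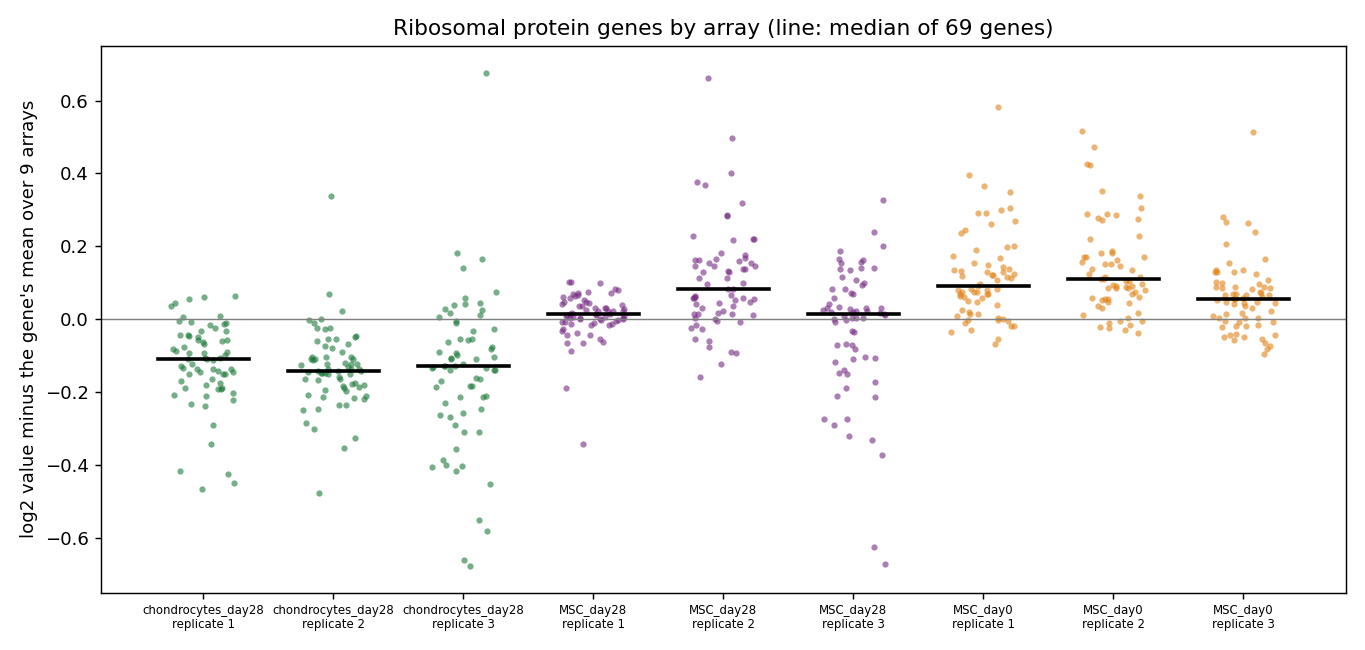
Deviation of each of 69 ribosomal protein genes from its own mean over 9 arrays, in log2 units, by array, with 1 point per gene and a line at the median. The medians lie between -0.14 and -0.11 on the 3 chondrocytes_day28 arrays and between 0.01 and 0.11 on the 6 MSC arrays, and 11 points from RPS19, RPS19BP1 and RPS9 lie beyond the axis limit of 0.75.

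Measures of the arrays themselves moved partly with the groups. The 14 hybridisation controls averaged 10.0 on chondrocytes_day28 replicate 3 and 9.98 on MSC_day28 replicate 3, against 11.4 to 11.8 on the other 7 arrays. The mean 3′ minus 5′ difference of 6 bovine control transcripts was 1.81 ± 0.19 in chondrocytes_day28, 1.81 ± 0.20 in MSC_day28 and 1.34 ± 0.23 in MSC_day0 (SD between arrays, n = 3 each). This difference is a sign of the RNA's integrity or amplification. Only that of actin tended to be highest in MSC_day0, while those of the other controls tended to be lower there than in both day 28 groups. That of actin was 1.31 to 1.69 in chondrocytes_day28, 1.43 to 1.68 in MSC_day28 and 1.64 to 1.92 in MSC_day0. That of gapd was 1.06 to 1.41, 1.37 to 2.05 and 0.81 to 1.08 in the same order. That of ef1a was negative on all 9 arrays. Blood cell markers (8 genes) had a mean level of 3.66 to 3.86 in chondrocytes_day28, 3.31 to 3.56 in MSC_day28 and 3.54 to 4.79 in MSC_day0. Of these 8, 4 were called lower and 0 higher in MSC_day28 than in MSC_day0. In chondrocytes_day28, 4 were called lower and 1 higher than in MSC_day0, and 1 lower and 0 higher than in MSC_day28. Relative to MSC_day0, 21% and 20.9% of all genes were called lower and 13.5% and 15.1% higher in these groups. PTPRC, the pan-leukocyte marker, was at a mean level of 2.25 in chondrocytes_day28, 2.15 in MSC_day28 and 2.49 in MSC_day0. The endothelial defining markers PECAM1, VWF, CDH5 and KDR lay between 1.87 and 2.66 in every group mean, while the other 2 of that list were called higher in both day 28 groups than in MSC_day0. TEK averaged 6.34 in chondrocytes_day28, 6.36 in MSC_day28 and 4.15 in MSC_day0, and ERG, a factor that cartilage also expresses, averaged 8.56 in chondrocytes_day28, 8.04 in MSC_day28 and 7.32 in MSC_day0. Marrow stromal markers (6 genes) had a mean level of 6.26 to 6.55 in chondrocytes_day28, 6.05 to 6.60 in MSC_day28 and 7.48 to 8.68 in MSC_day0. They did not move alike. In MSC_day28, 3 were called lower and 0 higher than in MSC_day0, with differences from -4.07 to 0.50. In chondrocytes_day28, 2 were called lower and 0 higher than in MSC_day0. Only 3 of those 6 differences were negative, and they ran from -4.94 to 0.42. The part of these measures in the results below was not tested, apart from the values given without the 2 arrays of low controls.

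In chondrocytes_day28 relative to MSC_day28, both kept 28 days with TGF-beta3, nearly all ribosomal protein genes had a slightly lower level, and the shift was too small for most to pass the test singly. The difference was negative for 66 of 69, against 51.8% of all genes, and its median was -0.14 (0.907-fold), against -0.02 over all genes. RPS28 and RPS27L were lower and 0 members were higher, where 4.81% of all genes were called lower and 8.35% higher by limma; 5 members had an unadjusted p under 0.05. By groups that do not overlap, 34 members were lower on all 3 chondrocyte arrays than on any MSC_day28 array and 0 were higher, against 15.1% and 16.9% of all genes. The median SE of a member was 0.123, about the size of the median difference itself, and 57 members lay within 0.25 of 0.

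The large subunit holds more of the members than the small subunit, and the median differences of the subunits were close, at -0.15 and -0.13. All 37 core proteins of the large subunit had a negative difference. Of these, 30 were lower in each of the 3 calves, against 25.7% of all genes. RPL22, an RNA-binding protein at the outer face of the large subunit, had levels of 12.47, 12.24 and 12.43 in chondrocytes_day28, against 12.60, 12.92 and 12.68 in MSC_day28. The difference was -0.35 ± 0.14 and was not called (limma adjusted p = 0.16), although the groups did not overlap. RPL7A, which joins the large subunit early in its assembly, had levels of 11.94, 11.97 and 11.77 in chondrocytes_day28, against 12.28, 12.47 and 11.97 in MSC_day28, a difference of -0.35 ± 0.16 (limma adjusted p = 0.233). Its highest chondrocyte value lay just below its lowest MSC value. RPL39, which lines the tunnel through which the new protein leaves, had levels of 12.16, 12.14 and 12.18 in chondrocytes_day28, against 12.36, 12.54 and 12.34 in MSC_day28, a difference of -0.26 ± 0.12 (limma adjusted p = 0.224). RPL10A and RPL3, a protein beside the catalytic centre, overlapped between these groups, with differences of -0.13 ± 0.12 and -0.10 ± 0.22.

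Of the 23 core small subunit proteins, 21 had a negative difference, with a median of -0.13. RPS28, a small protein near the path of the message through the small subunit, fell the furthest. Its level was 9.36, 9.35 and 9.42 in chondrocytes_day28, against 9.82, 10.49 and 10.15 in MSC_day28. The difference was -0.78 ± 0.18, or 0.584-fold (limma adjusted p = 0.0236), and the groups did not overlap. The call was lost, with an adjusted p of up to 0.0916, in 6 of 19 alternatives, among them the fits without any one of the chondrocyte arrays and without MSC_day28 replicate 2. RPS14, which takes part in forming the platform of the small subunit, had levels of 12.66, 12.52 and 12.31 in chondrocytes_day28, against 12.80, 13.12 and 12.69 in MSC_day28, with no overlap and no call (-0.37 ± 0.16, limma adjusted p = 0.183). RPSA, a protein of the small subunit's surface that is also known as a laminin receptor, had levels of 11.74, 11.86 and 11.48 in chondrocytes_day28, against 12.11, 12.52 and 11.75 in MSC_day28. These ranges overlapped, and the difference of -0.44 ± 0.21 was not called (limma adjusted p = 0.24).

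RPS6, the small subunit protein that S6 kinases phosphorylate, had levels of 13.08, 13.06 and 13.21 in chondrocytes_day28, against 13.19, 13.24 and 13.30 in MSC_day28, a difference of -0.12 ± 0.12 that was not called. RPS29 and RPS9, both small subunit proteins, and RPL3L were the only members with a positive difference, at 0.07 ± 0.11, 0.15 ± 0.30 and 0.06 ± 0.15. The stalk proteins, which draw elongation factors to the large subunit, had differences of -0.08 ± 0.11 for RPLP0 and -0.06 ± 0.15 for RPLP2. A further bright probe set of RPLP0, at a mean of 12.55, differed by -0.23 ± 0.14 and was not called (limma adjusted p = 0.372).

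Among paralogues, RPS27L was lower in chondrocytes. It is a near copy of RPS27 that the tumour suppressor p53 induces in human cells. Its level was 11.10, 11.22 and 11.23 in chondrocytes_day28, against 11.61, 11.62 and 11.72 in MSC_day28, and the groups lay well apart. The difference was -0.47 ± 0.12, or 0.724-fold (limma adjusted p = 0.0386). With the calf as a block the adjusted p was 0.0563, and without any one of 8 of the 9 arrays, all but MSC_day0 replicate 2, the call was also lost; the adjusted p was highest, at 0.131, without both arrays of low controls. RPS27 itself, at 13.00, 12.91 and 13.00 in chondrocytes_day28, against 13.10, 13.14 and 13.24 in MSC_day28, differed by -0.19 ± 0.11 and was not called. RPL26L1, a near copy of RPL26, differed by -0.32 ± 0.14 with no overlap and no call (limma adjusted p = 0.197). RPL7L1 and RPS4Y1 differed by -0.24 ± 0.16 and -0.15 ± 0.12, with overlap in both.

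The small shift had the same sign in each calf. Within calves 1, 2 and 3 the median chondrocytes_day28 minus MSC_day28 difference was -0.13, -0.22 and -0.12, with 61, 63 and 60 of 69 members negative. Over all genes the medians were -0.03, 0.01 and 0, with 52.7%, 47.6% and 49.4% negative. Without the 2 arrays of low hybridisation controls 66 members were negative, the median was -0.16, and neither RPS28 nor RPS27L was called. Leaving out 1 array at a time gave 62 to 67 negative members. Under array median centring 67 were negative (median -0.21, against -0.08 over all genes) and under cyclic loess 65 (median -0.12, against 0.01). The sign of the shift held under both scalings, while the size of the member median moved along with that of all genes.

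**Figure D2:**
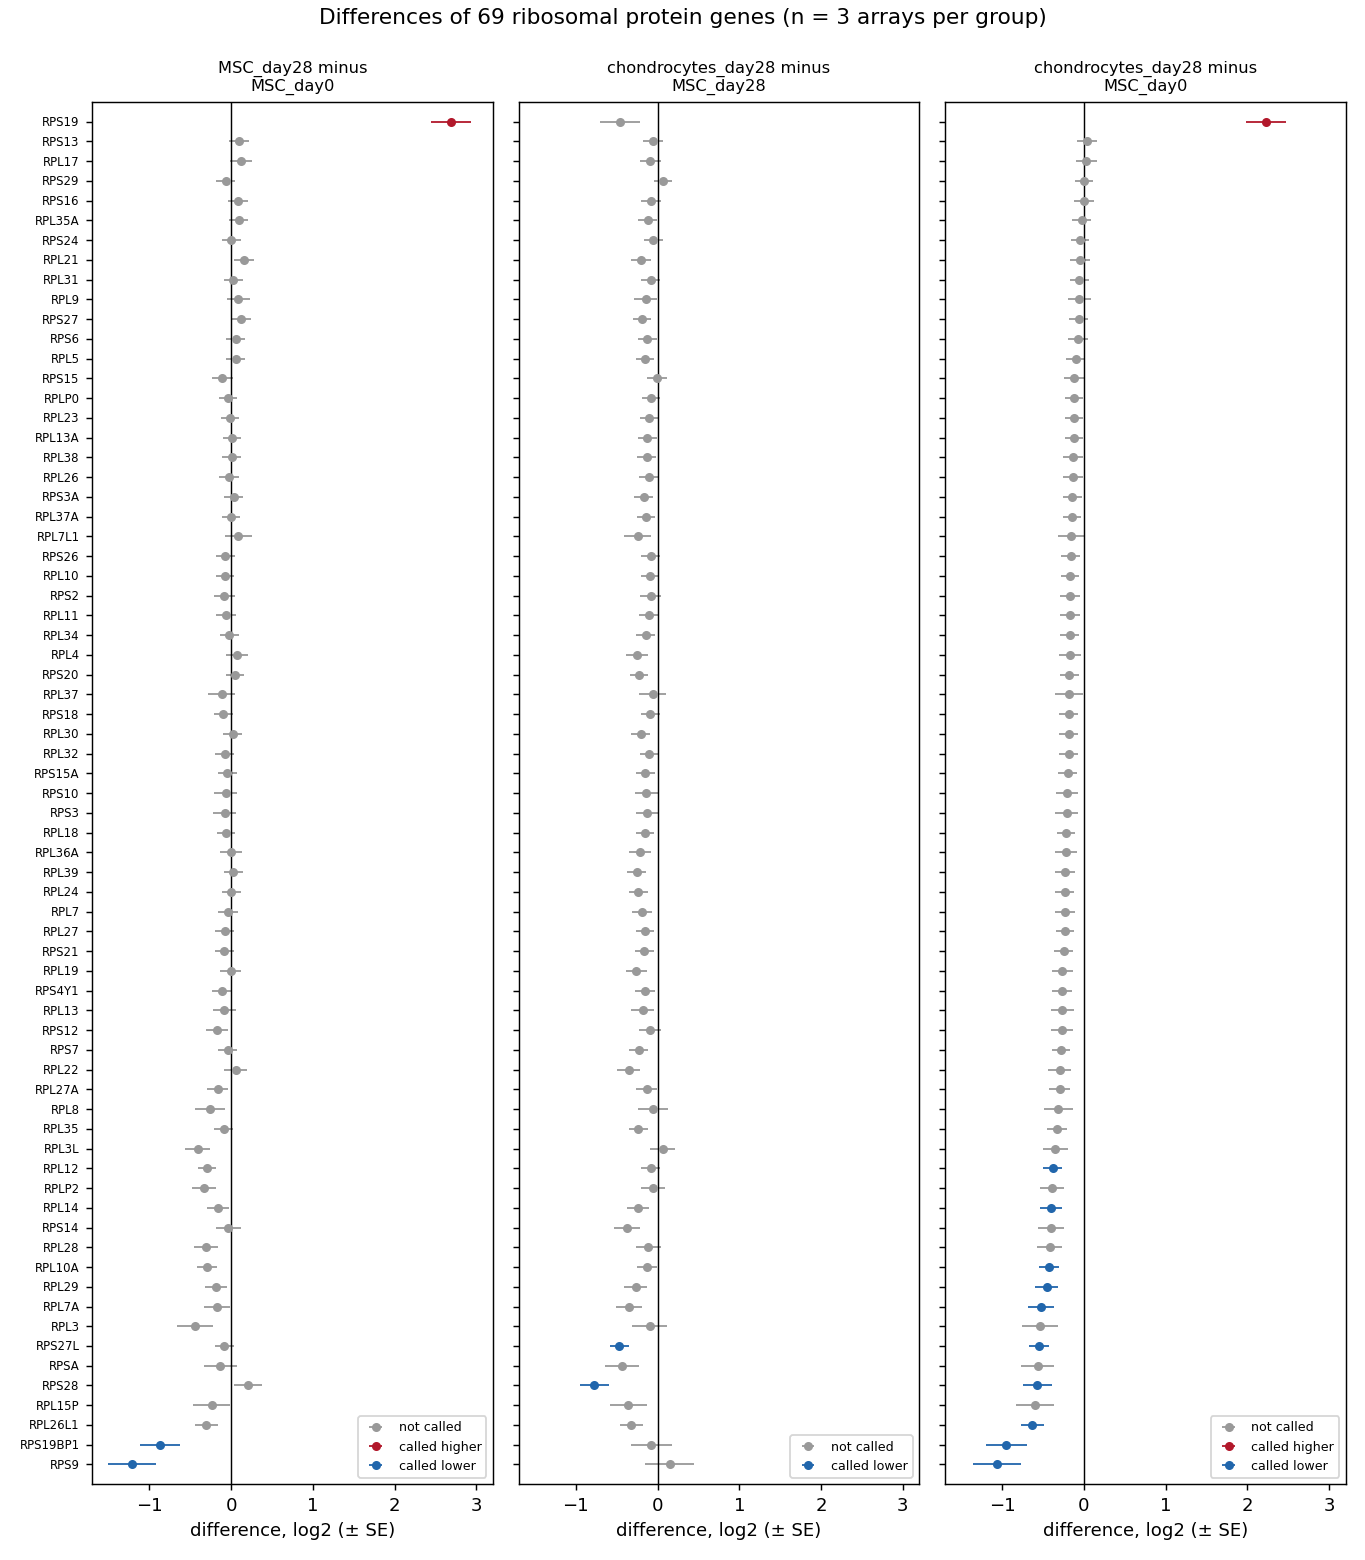
Difference of each of 69 ribosomal protein genes in the 3 comparisons, in log2 units with ± 1 SE from limma (n = 3 arrays per group), ordered by the chondrocytes_day28 minus MSC_day0 difference. Grey points were not called, red were called higher (RPS19) and blue called lower: 2, 2 and 10 genes from left to right; the points of the middle panel lie left of 0 for 66 genes (67 under array median centring, 65 under cyclic loess).

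Over 28 days of chondrogenic culture, MSCs kept the levels of most ribosomal protein genes close to those at day 0, while RPS9 and RPS19BP1 fell and a dim probe set of RPS19 gave a higher value. In MSC_day28 relative to MSC_day0, 46 of 69 differences were negative, against 59.2% of all genes, and the median was -0.07 (0.955-fold), against -0.11 over all genes. Under cyclic loess 35 were negative and the median was -0.02. The members within 0.25 of 0 made up 84.1%, against 51.3% of the other genes with a mean of at least 12 and 35.8% of all genes. By limma, 1 member was higher and 2 were lower, where 13.5% of all genes were called higher and 21% lower. Without overlap, 6 members were higher and 15 lower, against 18.1% and 28.8% of all genes.

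RPS9, a small subunit protein whose homologues in bacteria and yeast affect the accuracy of decoding, fell furthest. Its level was 10.29, 10.77 and 9.49 in MSC_day28, against 11.49, 11.55 and 11.15 in MSC_day0. The difference was -1.21 ± 0.30, or 0.432-fold (limma adjusted p = 0.0127), and the groups did not overlap. The lowest of these values was that of MSC_day28 replicate 3, an array of low hybridisation controls, and the gene was called in all 19 alternatives, with an adjusted p of up to 0.0451. RPS19BP1 had levels of 8.79, 9.04 and 8.31 in MSC_day28, against 9.56, 9.94 and 9.26 in MSC_day0, and fell by 0.87 ± 0.25 on the log2 scale (limma adjusted p = 0.0252). That call was lost without MSC_day28 replicate 3, without MSC_day0 replicate 1 or 2, and without both arrays of low controls, with an adjusted p of up to 0.0872.

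RPS19, a small subunit protein mutated in the human marrow disorder Diamond-Blackfan anaemia, was read by dim probe sets only. The brighter had levels of 5.61, 5.61 and 6.08 in MSC_day28, against 3.41, 2.56 and 3.27 in MSC_day0, a difference of 2.69 ± 0.24 (limma adjusted p = 7.7e-05). The groups lay far apart, but the MSC_day0 values lie near the mean of PTPRC there (2.49), so that no fold is given. The other probe set, at a mean of 1.84, went the other way by -0.44 and was not called (limma adjusted p = 0.0733). At these levels, far below those of the other core proteins apart from RPL37, neither set can be taken as a sure measure of the RPS19 message.

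The remaining members were not called in this comparison. The 5 with a positive difference and the next smallest p values were RPL21 (0.16 ± 0.12), RPS28 (0.21 ± 0.18), RPS27 (0.12 ± 0.11), RPL17 (0.12 ± 0.13) and RPL35A (0.09 ± 0.12). The limma adjusted p of each was at least 0.396. On the negative side were RPL3L (-0.41 ± 0.15, limma adjusted p = 0.0681), RPL12 (-0.30 ± 0.11, 0.0835), RPL10A (-0.30 ± 0.12, 0.0974) and RPLP2 (-0.33 ± 0.15, 0.125), none called although no groups overlapped. RPL12 sits at the base of the stalk, and RPLP2 forms its tip. RPLP2 had levels of 12.61, 12.66 and 12.33 in MSC_day28, against 12.97, 12.91 and 12.70 in MSC_day0. RPLP0, the protein that anchors the stalk, had levels of 13.02, 13.02 and 13.02 in MSC_day28, against 13.04, 13.06 and 13.10 in MSC_day0. The second probe set of RPLP0, at a mean of 12.55, had levels of 12.57, 12.73 and 12.31 in MSC_day28, against 12.85, 12.85 and 12.73 in MSC_day0. Its difference of -0.27 ± 0.14 was free of overlap and not called (limma adjusted p = 0.174), so that the sets of RPLP0 differ here.

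RPS6 (0.05 ± 0.12), RPL22 (0.06 ± 0.14), RPL39 (0.03 ± 0.12), RPL7 (-0.04 ± 0.12), RPSA (-0.13 ± 0.21) and RPL3 (-0.44 ± 0.22) were also not called between MSC_day28 and MSC_day0. Of the paralogues, RPL26L1 differed by -0.31 ± 0.14, RPS4Y1 by -0.11 ± 0.12, RPS27L by -0.08 ± 0.12 and RPL7L1 by 0.09 ± 0.16. Within calves 1, 2 and 3 the median of the 69 was -0.08, -0.03 and -0.04, with 53, 41 and 44 members negative. Over all genes the medians were -0.08, -0.12 and -0.10, with 55.5%, 58.2% and 57.5% negative. Without the 2 arrays of low controls the member median was -0.03, with 44 negative, against 58.7% of all genes.

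**Figure D3:**
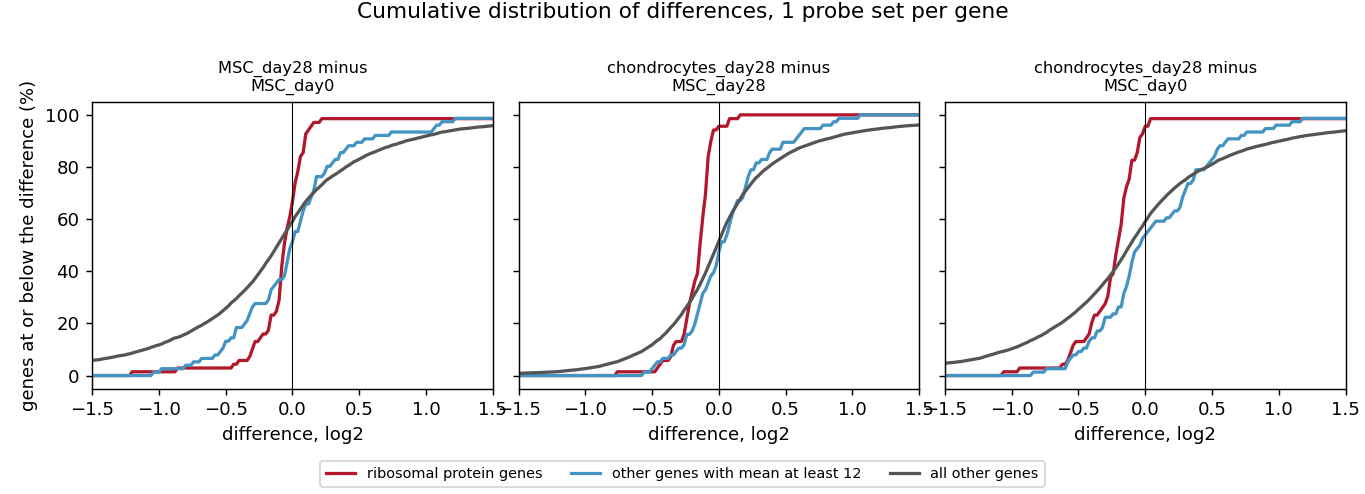
Cumulative share of genes (vertical, percent) at or below each log2 difference (horizontal) in the 3 comparisons, for 69 ribosomal protein genes, 76 other genes with a mean of at least 12 and all other genes. The ribosomal protein curve is the steepest in each panel and crosses the middle of the scale at -0.07, -0.14 and -0.21 (-0.12, -0.21 and -0.33 under array median centring, -0.02, -0.12 and -0.14 under cyclic loess), where the other genes of at least 12 have medians of -0.02, 0.01 and -0.04.

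Chondrocytes_day28 and MSC_day0, which differ in cell type and in time under TGF-beta3, lay furthest apart by the member median, but not relative to all genes. The difference was negative for 66 of 69, against 59.3% of all genes, with a median of -0.21 (0.865-fold), against -0.12 over all genes. In chondrocytes_day28 relative to MSC_day28 these medians were -0.14 and -0.02. Under cyclic loess the member median was -0.14 here and -0.12 there, with 58 and 65 members negative. Of the 69, 10 were called lower and 1 higher by limma, where 20.9% of all genes were called lower and 15.1% higher. The count of 10 was 27 under array median centring, 24 with trended robust variance and 5 under cyclic loess, and with 1 array left out it lay between 2 (without chondrocytes_day28 replicate 3) and 12 (without MSC_day28 replicate 3). Without overlap, 49 members were lower and 1 was higher, against 32.3% and 21.6% of all genes. This comparison shares its chondrocyte arrays with the first and its MSC_day0 arrays with the second, so that it is not an independent repeat of either.

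The large subunit held 5 of the calls. RPL10A had levels of 12.30, 12.34 and 12.36 in chondrocytes_day28, against 12.72, 12.81 and 12.76 in MSC_day0. The difference was -0.43 ± 0.12, or 0.742-fold (limma adjusted p = 0.0247), and the groups lay well apart; MSC_day28 was at 12.53, 12.56 and 12.31, the last of these within the chondrocyte range. RPL12 had levels of 12.39, 12.51 and 12.40 in chondrocytes_day28, against 12.85, 12.74 and 12.85 in MSC_day0, and fell by 0.38 ± 0.11 on the log2 scale (limma adjusted p = 0.032, and 0.0526 with the calf as a block). The other 3, RPL7A, RPL14 and RPL29, were named after their values had been seen.

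RPL7A had levels of 11.94, 11.97 and 11.77 in chondrocytes_day28, against 12.47, 12.53 and 12.24 in MSC_day0, a difference of -0.52 ± 0.16 (limma adjusted p = 0.0363). RPL14, a large subunit protein, had levels of 12.56, 12.47 and 12.44 in chondrocytes_day28, against 12.95, 12.99 and 12.76 in MSC_day0, a difference of -0.41 ± 0.13 (limma adjusted p = 0.0448). RPL29, a small lysine-rich protein of the large subunit, had levels of 12.46, 12.44 and 12.28 in chondrocytes_day28, against 12.88, 12.92 and 12.77 in MSC_day0, a difference of -0.46 ± 0.14 (limma adjusted p = 0.0346). None of these 3 overlapped between the groups. Each of the 5 large subunit calls depended on the arrays and the processing used: they were kept in 13 (RPL10A), 10 (RPL12), 11 (RPL7A), 9 (RPL14) and 10 (RPL29) of 19 alternatives, and each was lost without any one of the 3 chondrocyte arrays. Calls were also lost without any one MSC_day0 array for RPL10A and RPL29, without MSC_day0 replicate 1 or 3 for RPL12, without MSC_day0 replicate 1 or 2 for RPL7A and RPL14, and without MSC_day28 replicate 1 or with a filter at the 25th percentile for RPL14. Those of RPL12, RPL7A, RPL14 and RPL29 were lost as well under cyclic loess, without the 2 arrays of low controls and with these arrays as a block. The adjusted p rose to at most 0.123 over these 19 alternatives.

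Of the small subunit, RPS9 and RPS28 were lower. RPS9 had levels of 10.45, 10.49 and 10.06 in chondrocytes_day28, against 11.49, 11.55 and 11.15 in MSC_day0, a difference of -1.07 ± 0.30 or 0.478-fold (limma adjusted p = 0.0229). RPS28 had levels of 9.36, 9.35 and 9.42 in chondrocytes_day28, against 9.91, 10.10 and 9.83 in MSC_day0, a difference of -0.57 ± 0.18 (limma adjusted p = 0.0359). Both were free of overlap, and the RPS9 call was lost without chondrocytes_day28 replicate 1 or 3 or MSC_day0 replicate 1 or 2, with an adjusted p of up to 0.0785. The RPS28 call was lost without any one of the 6 arrays of these groups, under cyclic loess, without the 2 arrays of low controls and with these as a block, with an adjusted p of up to 0.11. RPS19 was higher by 2.23 ± 0.24 (limma adjusted p = 0.000187), at 5.48, 5.06 and 5.39 in chondrocytes_day28, with the limit on its dim probe set given above.

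Both RPS27L and RPL26L1 were lower, 2 of the 5 paralogues. RPL26L1 had levels of 10.07, 10.16 and 10.28 in chondrocytes_day28, against 10.85, 10.96 and 10.59 in MSC_day0, a difference of -0.63 ± 0.14 or 0.646-fold (limma adjusted p = 0.00831). It was called lower in all 19 alternatives, and MSC_day28 lay between the groups at 10.40, 10.52 and 10.55. RPS27L had levels of 11.10, 11.22 and 11.23 in chondrocytes_day28, against 11.82, 11.65 and 11.73 in MSC_day0, a difference of -0.55 ± 0.12 (limma adjusted p = 0.00749). Its direction turned with the mean of its probe sets (0.66) and with its probe set of largest SD (1.87). RPS19BP1 also fell, by 0.95 ± 0.25 on the log2 scale (limma adjusted p = 0.0174), with the call lost without chondrocytes_day28 replicate 3 or MSC_day0 replicate 2 (adjusted p of up to 0.0632).

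**Figure D4:**
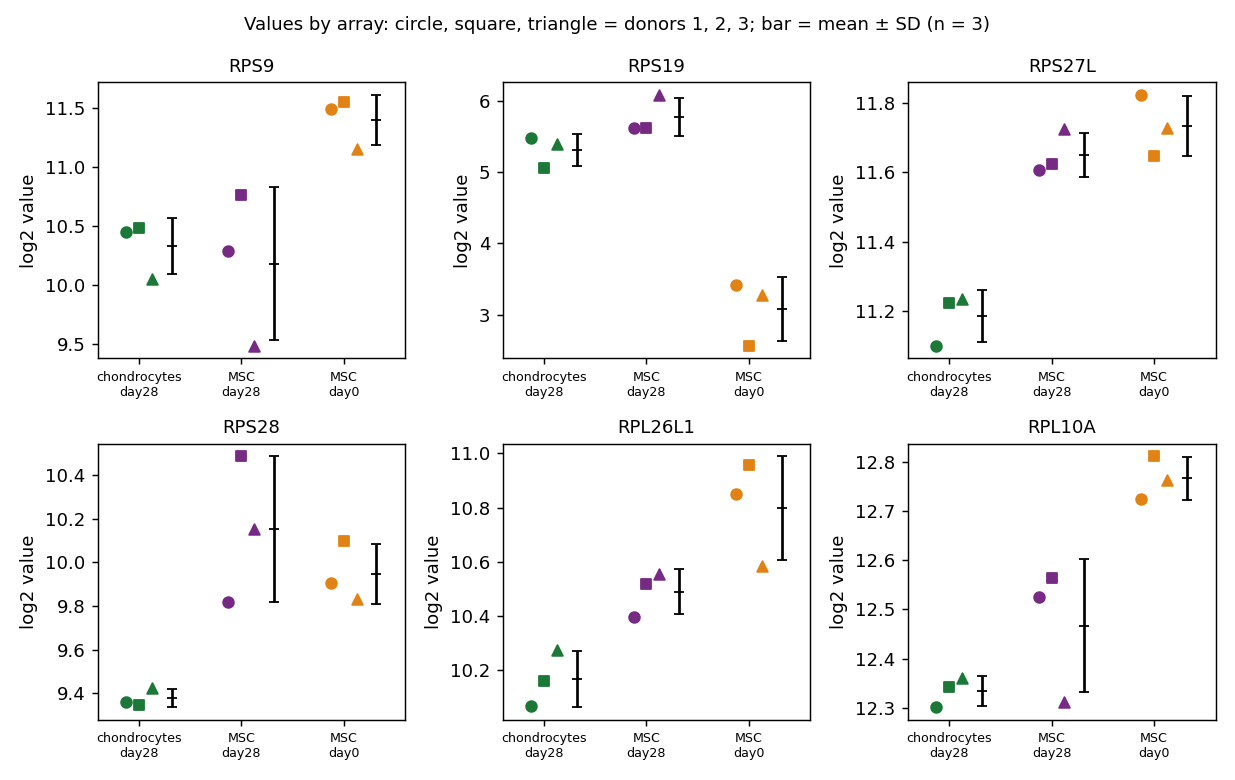
Log2 level of 6 called members on each array, by group, with calves 1, 2 and 3 as circle, square and triangle and the bar as mean ± SD (n = 3). RPS9, RPL26L1 and RPL10A lie lowest in the groups at day 28, RPS27L and RPS28 lie lowest in chondrocytes_day28, and RPS19 lies at 2.56 to 3.41 in MSC_day0, below both day 28 groups; each panel has its own axis, which does not start at 0.

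Between chondrocytes_day28 and MSC_day0, 8 members had an adjusted p between 0.05 and 0.1. RPSA had levels of 11.74, 11.86 and 11.48 in chondrocytes_day28, against 12.33, 12.36 and 12.08 in MSC_day0, with no overlap and a difference of -0.57 ± 0.21 (limma adjusted p = 0.0652). RPLP2 differed by -0.39 ± 0.15 (limma adjusted p = 0.0719), RPL15P by -0.60 ± 0.23 (0.0769), RPS14 by -0.41 ± 0.16 (0.0807) and RPL3 by -0.54 ± 0.22 (0.0923). The other 3, named after their values had been seen, were RPL35 (-0.33, limma adjusted p = 0.0628), RPL28 (-0.42, 0.0633) and RPS7 (-0.28, 0.0917). With the calf as a block 5 of the 8 passed, at limma adjusted p values of 0.0188 for RPSA, 0.0463 for RPLP2, 0.0177 for RPL15P, 0.0328 for RPL3 and 0.0347 for RPL28. RPS14, RPL35 and RPS7 did not, at 0.0616, 0.0892 and 0.125.

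Other named members were not called in this comparison. RPL22 differed by -0.29 ± 0.14, RPL7 by -0.23 ± 0.12, RPL39 by -0.23 ± 0.12, RPS4Y1 by -0.27 ± 0.12, RPL3L by -0.35 ± 0.15, RPL7L1 by -0.15 ± 0.16 and RPLP0 by -0.12 ± 0.11. RPS6 differed by -0.07 ± 0.12, RPS27 by -0.07 ± 0.11 and RPS24 by -0.05 ± 0.11. The only positive differences beside that of RPS19 were those of RPS13, a small subunit protein, at 0.04 ± 0.12, and RPL17, at the mouth of the exit tunnel and of the highest mean of all members (13.39), at 0.03 ± 0.13. Within calves 1, 2 and 3 the median of the 69 was -0.20, -0.24 and -0.17, with 64, 66 and 57 negative. Over all genes the medians were -0.10, -0.11 and -0.11, with 56.7%, 56.8% and 57.2% negative. Array median centring, which shifted the median of all probe sets in this comparison by -0.12, gave a member median of -0.33 against -0.24 over all genes, and cyclic loess gave -0.14 against -0.04. Both kept the member median below that of all genes, with 68 and 58 members negative.

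Probe sets of the same gene did not always move alike. The 19 genes with more than 1 probe set had 29 further sets, with means from 1.84 to 12.6 and 3 of at least 12. Between MSC_day28 and MSC_day0, 5 of these were higher and 7 lower, between chondrocytes_day28 and MSC_day28 1 was higher and 0 lower, and between chondrocytes_day28 and MSC_day0 5 were higher and 12 lower. Over all 24016 probe sets, 14.6% were called higher and 15.6% lower in the first of these comparisons, 6.27% and 4.06% in the second, and 15.1% and 15.9% in the last. The second set of RPS27L had levels of 6.20, 5.50 and 6.30 in chondrocytes_day28, 7.01, 6.49 and 8.11 in MSC_day28 and 4.31, 3.90 and 4.20 in MSC_day0. It rose by 3.07 in MSC_day28 (limma adjusted p = 0.000385) and by 1.87 in chondrocytes_day28 (0.00557) relative to MSC_day0, where the bright set of the gene differed by -0.08 and -0.55. The dimmest set of RPS7, a small subunit protein, rose by 2.09 and 1.78 in the same comparisons, where the bright set differed by -0.04 and -0.28.

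The second sets of RPL24 and RPL7 were likewise higher relative to MSC_day0 in MSC_day28 (1.48 and 1.09) and in chondrocytes_day28 (1.27 and 1.13), where the bright sets differed by at most 0.23 in size. RPS4Y1's second set, at a mean of 9.69, was higher in chondrocytes_day28 than in MSC_day28 by 0.85 (limma adjusted p = 0.0202) and than in MSC_day0 by 1.56 (0.000299). In the other direction, the second sets of RPS15A (-1.38), RPL21 (-0.82), RPL32 (-0.72) and RPL9 (-0.69) and the 2 further sets of RPL7L1 (-0.83 and -0.89) were lower in MSC_day28 than in MSC_day0. The dimmest set of RPL15P fell by 0.47 on the log2 scale there. Between chondrocytes_day28 and MSC_day0 the second set of RPLP0, with levels of 12.33, 12.32 and 12.28 in chondrocytes_day28, against 12.85, 12.85 and 12.73 in MSC_day0, fell by 0.50 on the log2 scale (limma adjusted p = 0.0222), where its first set differed by -0.12. The first set is of a kind that the platform marks as open to cross-hybridisation. A dim set of RPS12, at a mean of 7.64, fell by 1.42 on the log2 scale there. Ribosomal protein genes have many near-identical processed copies in mammalian genomes, and no probe sequence was used here, so that which transcripts each set reads was not tested.

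Lists of genes that build or work with the ribosome were counted in the same way, and differences between lists were not tested. Mitochondrial ribosomal proteins, which form the separate ribosome of mitochondria, were lower for 32 and higher for 3 of 67 in MSC_day28 relative to MSC_day0, with a median of -0.60; 21% of all genes were lower and 13.5% higher there. Between chondrocytes_day28 and MSC_day0, 43 were lower and 0 higher, with a median of -0.72, against 20.9% and 15.1% of all genes. Between chondrocytes_day28 and MSC_day28, 4 were lower and 1 higher (median -0.11). These are 5.97% and 1.49% of the list, against 4.81% and 8.35% of all genes. MRPL14 had levels of 6.27, 6.08 and 6.23 in MSC_day28, against 7.75, 7.87 and 7.29 in MSC_day0 (-1.44 ± 0.16, limma adjusted p = 0.000225), and MRPS14 differed by -1.20 ± 0.16. MRPL35 and MRPL13 differed between chondrocytes_day28 and MSC_day0 by -1.16 ± 0.15 and -1.12 ± 0.15. MRPL10 and MRPL3 were lower in chondrocytes_day28 than in MSC_day28, with differences of -0.93 ± 0.15 and -0.76 ± 0.12.

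Ribosome biogenesis factors (72 measured of 91 listed) were lower for 15 and higher for 2 in MSC_day28 relative to MSC_day0, lower for 7 and higher for 2 in chondrocytes_day28 relative to MSC_day28, and lower for 26 and higher for 1 in chondrocytes_day28 relative to MSC_day0. These are 20.8%, 9.72% and 36.1% lower and 2.78%, 2.78% and 1.39% higher, against 21%, 4.81% and 20.9% lower and 13.5%, 8.35% and 15.1% higher over all genes. Their medians were -0.32, -0.09 and -0.42, and under cyclic loess 5 were lower and 3 higher in chondrocytes_day28 relative to MSC_day28. GAR1, a protein of the particles that modify ribosomal RNA, had levels of 7.65, 8.19 and 7.65 in MSC_day28, against 9.52, 9.46 and 9.12 in MSC_day0 (-1.54 ± 0.19, limma adjusted p = 0.000402). RRN3, an initiation factor of RNA polymerase I, went the other way, at 10.72, 11.10 and 10.98 in MSC_day28, against 9.61, 9.83 and 9.70 in MSC_day0 (1.22 ± 0.14), and was lower in chondrocytes_day28 than in MSC_day28 (-0.71 ± 0.14). NVL, needed for maturing the large subunit, was lower in chondrocytes_day28 than in MSC_day28 (-0.81 ± 0.12). NOP16, a nucleolar protein, differed by -1.32 ± 0.12 between chondrocytes_day28 and MSC_day0, and DDX47, an RNA helicase of ribosomal RNA processing, by -0.78 ± 0.12.

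Translation factors (47 of 56) had 8 lower and 4 higher in MSC_day28 relative to MSC_day0, 7 lower and 0 higher in chondrocytes_day28 relative to MSC_day28, and 18 lower and 1 higher in chondrocytes_day28 relative to MSC_day0, with medians of -0.17, -0.22 and -0.37. The shares lower were 17%, 14.9% and 38.3%, against 21%, 4.81% and 20.9% of all genes. The shares higher were 8.51%, 0% and 2.13%, against 13.5%, 8.35% and 15.1% of all genes. The count of 18 was 27 under array median centring and 11 under cyclic loess. EIF4B, a helper of the initiation helicase, had levels of 10.31, 10.44 and 10.60 in chondrocytes_day28, against 11.29, 11.74 and 11.39 in MSC_day28 (-1.03 ± 0.17, limma adjusted p = 0.00541). EIF2S3, a subunit of the factor that brings the first transfer RNA, differed by -0.68 ± 0.12 there. EEF2K, the kinase that slows elongation, was higher in MSC_day28 than in MSC_day0 by 1.79 ± 0.18. EEF1A2, an elongation factor of muscle and nerve, was lower there (-6.10 ± 0.49).

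Of 3 measured proteins that are fused to or bound by the ribosome, FAU, whose product includes ribosomal protein S30, was at 11.63, 11.49 and 11.68 in chondrocytes_day28, against 11.97, 12.27 and 11.87 in MSC_day28, with no overlap and no call (-0.43 ± 0.16, limma adjusted p = 0.135). SERBP1, which binds idle ribosomes, was lower in MSC_day28 (-0.80 ± 0.26) and in chondrocytes_day28 (-1.14 ± 0.26) than in MSC_day0. Regulators of the mTOR, S6 kinase and MYC pathways (23 of 34) had 7 higher and 4 lower in MSC_day28 relative to MSC_day0, 1 higher and 3 lower in chondrocytes_day28 relative to MSC_day28, and 6 higher and 4 lower in chondrocytes_day28 relative to MSC_day0. The shares higher were 30.4%, 4.35% and 26.1%, against 13.5%, 8.35% and 15.1% of all genes. The shares lower were 17.4%, 13% and 17.4%, against 21%, 4.81% and 20.9% of all genes. TSC1, an inhibitor of mTOR, was higher in MSC_day28 than in MSC_day0 by 2.37 ± 0.28, and RPS6KA3, a kinase that can phosphorylate RPS6, was lower (-2.21 ± 0.23). SESN2, a stress-induced inhibitor of mTOR, was lower in chondrocytes_day28 than in MSC_day28 (-2.04 ± 0.26), and RPS6KL1, a relative of the S6 kinases, was higher by 2.07 ± 0.29. DDIT4, another inhibitor of mTOR, and RPS6KA5, a kinase that acts on chromatin, were higher in chondrocytes_day28 than in MSC_day0 by 1.75 ± 0.23 and 2.14 ± 0.26.

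Cell cycle genes differed between all 3 groups. Of 26, 24 were higher and 0 lower in chondrocytes_day28 relative to MSC_day28, with a median of 2.49, while 18 were lower and 0 higher in MSC_day28 relative to MSC_day0, with a median of -1.34. Between chondrocytes_day28 and MSC_day0, 19 were higher and 1 lower. Of all genes, 8.35% were higher and 4.81% lower in the first of these comparisons. The shares of all genes were 13.5% and 21% in the second and 15.1% and 20.9% in the last. PCLAF, a factor of replicating DNA, had levels of 8.84, 9.13 and 9.01 in chondrocytes_day28, between 2.37 and 2.63 in MSC_day28 and 7.87, 8.58 and 8.17 in MSC_day0. CCNB1, the mitotic cyclin, was higher in chondrocytes_day28 than in MSC_day28 by 5.01 ± 0.29, and MCM4, of the replication helicase, was higher in chondrocytes_day28 than in MSC_day0 by 1.43 ± 0.14. Their mean level was 7.99 to 8.24 in chondrocytes_day28, 4.89 to 5.62 in MSC_day28 and 6.85 to 7.20 in MSC_day0 arrays. The ribosomal protein genes therefore had their lowest levels in the group in which the cell cycle genes had their highest, and the part of either in the other was not tested. The medians of mitochondrial ribosomal proteins, biogenesis factors, translation factors and cell cycle genes kept their sign under both scalings in all 3 comparisons.

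**Figure D5:**
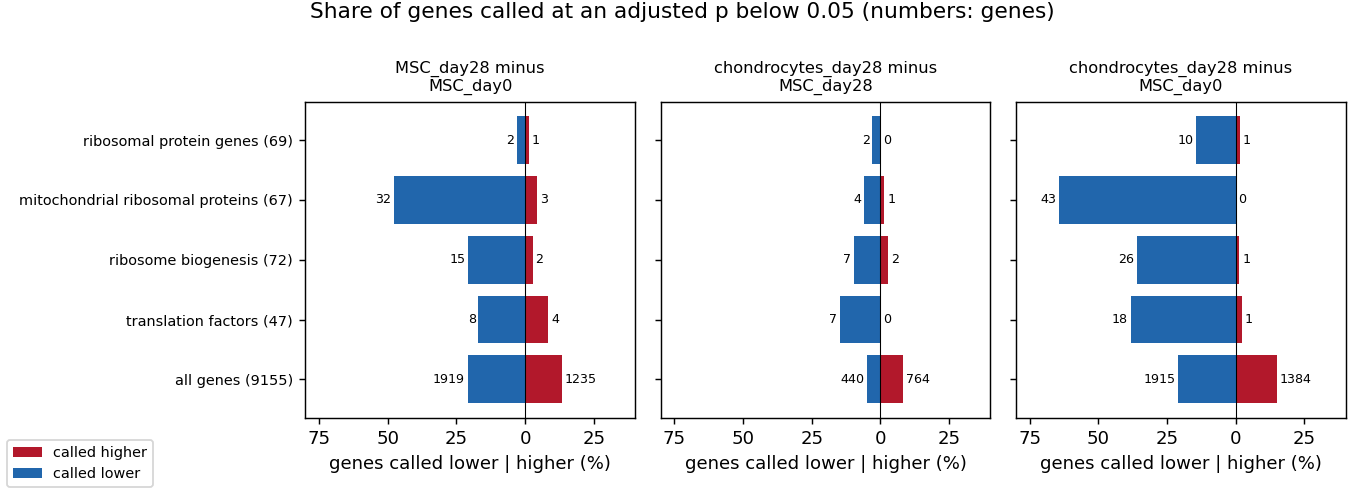
Share of genes called at an adjusted p under 0.05 by limma, lower to the left in blue and higher to the right in red, in percent of the genes of each list, with the number of genes beside each bar. Ribosomal protein genes were called lower for 2, 2 and 10 of 69 from left to right, mitochondrial ribosomal proteins for 32, 4 and 43 of 67; the 10 were 27 under array median centring, 24 with trended robust variance and 5 under cyclic loess, and all 9155 genes are the bottom row.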

How the data were processed

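Each of 9 RNA samples was hybridised to its own single-colour array; per the labels' protocols, cDNA was primed with poly(T), amplified linearly and labelled with biotin, which favours the 3′ end of transcripts. The range of the deposited values is that of a log2 scale, and the submitters' processing notes name RMA (version not given in the sources used here). RMA brings all arrays close to 1 distribution, so that a shift of total RNA cannot be seen. The deposited arrays were not fully alike. Their medians over all genes ranged from 6.85 to 7.05 and their highest values from 13.36 to 13.96.

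Of 24128 probe sets, 112 controls were left out. Symbols came from the platform annotation, and 13292 probe sets had 1 symbol, 86 several and 10638 none. Single symbols were updated from RefSeq's table (ARS-UCD2.0), which also gave the biotypes. The member rule used the platform symbol, and the genes and other lists used the updated one. A linear model over all groups was run with limma 3.58.1 under R 4.3.3 (lmFit, then eBayes). The Benjamini-Hochberg adjustment covered 24016 probe sets per comparison. With 3 arrays per group their number limits the precision. The script was tested on simulated data. The members and lists were chosen with earlier results of these data known.

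Replicate numbers are those of the calf, so that they pair the arrays. Deviations from group means correlated at 0.108 to 0.412 in 9 pairs of the same calf and -0.303 to 0.152 in 18 pairs of different calves. The calf as a block, other scalings, a filter at the 25th percentile, other probe set rules, trended robust variance, 2 groups alone and arrays left out were the alternatives.

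Named genes were, per comparison, the 6 members of smallest p in each direction, a fixed set (RPL10A, RPSA, the stalk, RPS6, RPL22, RPS27, RPL7, RPL3, RPL39 and paralogues), the extremes of mean and SD, members whose probe sets differ in call, and the 2 of smallest p of each other list.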

Additional observations from a re-analysis of the deposited data

How the results depend on the processing

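With the calf as a replicate block, the pairing left the median differences unchanged (-0.07 for MSC_day28 minus MSC_day0, -0.14 for chondrocytes_day28 minus MSC_day28 and -0.21 for chondrocytes_day28 minus MSC_day0), called 1 member lower between chondrocytes_day28 and MSC_day28 and 14 between chondrocytes_day28 and MSC_day0, and changed no other call than those given above. For MSC_day28 minus MSC_day0, the median was -0.12 under array median centring and -0.016 under cyclic loess; 5 were higher and 5 lower with the mean of a gene's probe sets, 6 and 5 with its probe set of largest SD, 5 lower with trended robust variance, and 1 lower without the 2 arrays of low controls or, in an alternative chosen after seeing the data, without RPS19BP1 and RPL15P. For chondrocytes_day28 minus MSC_day28, the median was -0.21 under array median centring; 1 was lower under cyclic loess, 1 higher and 1 lower with the probe set of largest SD, and 0 lower with the 2 groups alone or without the 2 arrays of low controls. For chondrocytes_day28 minus MSC_day0, array median centring gave 27 lower and a median of -0.33, cyclic loess 5 and -0.14, the mean of probe sets 2 higher, the probe set of largest SD 6 higher and 16 lower, trended robust variance 24 lower, and either leaving out the 2 arrays of low controls or blocking on them 5 lower. Leaving out 1 array at a time gave, in the same order of comparisons, 1 to 2, 0 to 2 and 2 to 12 members lower and medians of -0.08 to -0.03, -0.18 to -0.12 and -0.22 to -0.19. The count of 2 came without chondrocytes_day28 replicate 3 and that of 12 without MSC_day28 replicate 3. Of the named genes called in either fit, directions turned where the rule for the probe set changed. With the mean of probe sets they did so in MSC_day28 minus MSC_day0 for RPL7 (0.53), RPL7L1 (-0.54), RPS27L (1.49) and RPS7 (0.74), and in chondrocytes_day28 minus MSC_day0 for RPS27L (0.66). With the probe set of largest SD they did so in MSC_day28 minus MSC_day0 for RPL21 (-0.82), RPL7 (1.09), RPL7L1 (-0.89), RPS27L (3.07), RPS4Y1 (0.72) and RPS7 (2.09), in chondrocytes_day28 minus MSC_day28 for RPS4Y1 (0.85), and in chondrocytes_day28 minus MSC_day0 for RPL24 (1.27), RPL7 (1.13), RPS27L (1.87), RPS4Y1 (1.56) and RPS7 (1.78). Those sets are dimmer than the ones used, and the cause was not tested. Signs of uncalled members also turned: under cyclic loess 11, 1 and 8 members in the same order of comparisons, and under array median centring 10, 1 and 2. The cause of the other changes was not tested either. The small differences lie near the SE, and 3 arrays per group limit what could be called.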
